A study of Homo sapiens with 6 samples.

Results

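The 3 hyaluronan synthases HAS1, HAS2 and HAS3, the hyaluronidases HYAL1, HYAL2 and HYAL3 and the receptors CD44 and HMMR were examined in tumors of PC-3, an androgen-independent human prostate cancer cell line. They were matched by symbol, from a list chosen with earlier results of these data known. All 8 were found among the 24000 gene entries of the deposited table, with HYAL3 in an entry joined to NAT6. mRNA was sequenced with a stranded kit from 3 tumors of vehicle-treated nude mice and from 3 tumors of mice given WCE, an extract of the herb Wedelia chinensis that contains luteolin, apigenin and wedelolactone. The labels give 10 weeks of treatment for every tumor, no dose and no age, and they call the tumors individual samples. The study's text gives another duration for PC-3 tumors and more than 1 dose, so neither is certain for the tumors sequenced. By the methods of the study, the cells carried a luciferase gene and were placed in the prostate of male athymic mice, which lack T cells but keep myeloid cells and stroma of their own. Those methods also state the age at which the mice were obtained. Values are FPKM, a fragment count divided by transcript length and by the mapped total, which allows levels to be set side by side between genes.

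Hyaluronan is a long, unsulfated sugar chain of the extracellular matrix. The synthases build it at the plasma membrane from UDP-glucuronic acid and UDP-N-acetylglucosamine and push the chain out of the cell, the hyaluronidases cut it, and CD44 and HMMR bind it, HMMR also as a protein of the mitotic spindle. In carcinomas, hyaluronan is made by tumor cells as well as by fibroblasts, and long and short chains are known to signal differently.

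By level, the 8 genes fell into an order that was led by HAS3 and CD44. Mean FPKM over the 6 tumors was 136 for HAS3, 132 for CD44, 73.1 for HAS2, 31.1 for HYAL2, 22.1 for HMMR, 11.4 for HYAL3 and 0.363 for HYAL1. HAS3 stood above 95.1% and HYAL3 above 51.5% of the 13287 entries tested, the ones whose FPKM averaged 0.5 or more. HYAL1 and HAS1 were under that minimum and have values only. The ranges of HAS3 and CD44 overlapped over the 6 tumors, as did those of CD44 and HAS2 and those of HAS2 and HYAL2. HYAL2 lay above HMMR and HMMR above HYAL3 with no overlap.

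**Figure D1:**
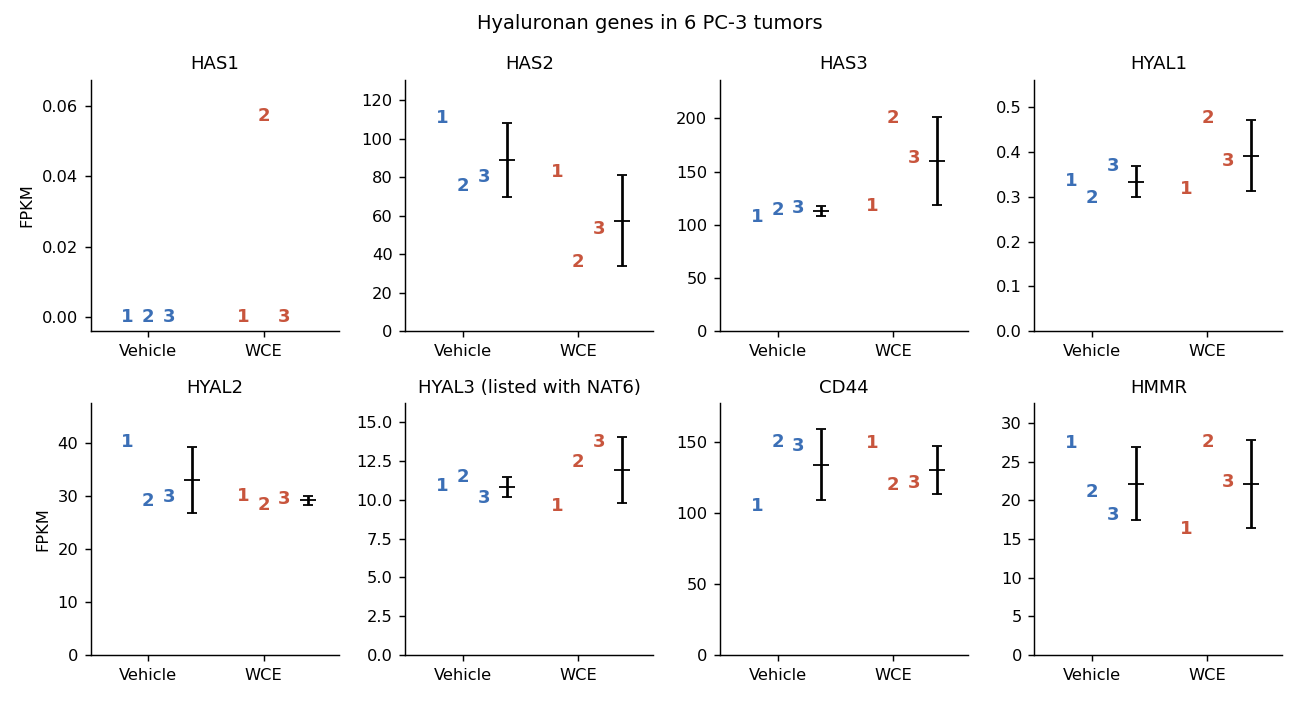
FPKM (vertical axis, a scale of its own for each gene) of the 8 hyaluronan genes in vehicle-treated and WCE-treated PC-3 tumors; each digit is the replicate number of 1 tumor, centered on its value, and the black bars are the mean ± SD (n = 3). HAS3 is the gene whose groups do not overlap, and for HAS1, listed at 0 in 5 tumors, no mean is drawn.

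WCE replicate 1 and vehicle replicate 3 had nearly the same values although they carry different labels. In entries averaging 50 FPKM or more, they differed by a median of 0.028 on the log2 scale, while the remaining 14 pairs ranged from 0.096 to 0.249, and the 8 hyaluronan genes differed between them by at most 0.14. WCE replicate 1 was also the shallowest library, at 25.0% of the depth of vehicle replicate 3, while the other tumors were at 64.9% to 85.5%. All of its 15805 entries above 0 were above 0 in vehicle replicate 3 too (0 missing), whereas each of the other 4 tumors lacked at least 329 of them. Whether both libraries hold reads of 1 tumor was not tested, and since their labels differ they could not be merged, so n = 3 counts WCE replicate 1 as a tumor of its own. Values without both libraries are given with each test of a hyaluronan or pathway gene named here. Human epithelial markers were abundant, with a summed FPKM of 1203 to 1447 over 5 genes in vehicle-treated tumors and 1146 to 1406 in WCE-treated tumors, and KLK3, the prostate-specific antigen, was listed at 0 in each. Fibroblast markers summed to 53.1 to 60.4 FPKM in vehicle-treated and 45.4 to 74.4 FPKM in WCE-treated tumors over 7 genes, with COL1A2, DCN and PDGFRB below 1 FPKM in every tumor. Endothelial markers summed to 1.20 to 3.37 and 3.21 to 7.60 FPKM over 5 genes, of which 3 were below 1 FPKM throughout. The 6 leukocyte markers summed to 25.6 to 41.2 and 40.2 to 44.4 FPKM, nearly all of it from CD68, and the other 5, PTPRC among them, were below 1 FPKM in every tumor. Of 27 marker genes listed, 14 were tested, of which 1 was higher in WCE-treated tumors at an unadjusted p under 0.05 by limma (KDR), 3 were lower (EPCAM, CDH1 and LUM), against 3.78% and 3.33% of all entries tested, and 0 passed after adjustment. Without the near-identical libraries 3 were higher and 3 lower, against 18.4% of entries in either direction, and 0 passed after adjustment. In bulk tumors, fewer cells of a type and less RNA per cell cannot be told apart, and reads from mouse host cells can fall on human genes. The part of these markers in the results on hyaluronan genes was not tested.

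The study examined NFκB, a transcription factor of inflammation, so the promoters of the hyaluronan genes were searched for a loose form of its motif. The sequences are the 250 bases before the transcription start, from RefSeq on GRCh38.p14, written in the sense of the gene. Entries were found for 7 of the 8 genes, all but HAS2, with 2 starts for HYAL3. The motif was GGG and CC with any 5 bases between them, read on both strands, and matches may overlap. It was found in 6 of the 8 promoters of these genes, against 54.4% of all 35116 promoters in the table. HAS3 is shown as the synthase whose groups did not overlap, and the receptors CD44 and HMMR because 1 of them held matches and the other held none. Capitals mark the bases covered by matches. The HAS3 promoter lies at chr16:69107290-69107539 (plus strand), the CD44 promoter at chr11:35138921-35139170 (plus strand) and the HMMR promoter at chr5:163460382-163460631 (plus strand).
HAS3: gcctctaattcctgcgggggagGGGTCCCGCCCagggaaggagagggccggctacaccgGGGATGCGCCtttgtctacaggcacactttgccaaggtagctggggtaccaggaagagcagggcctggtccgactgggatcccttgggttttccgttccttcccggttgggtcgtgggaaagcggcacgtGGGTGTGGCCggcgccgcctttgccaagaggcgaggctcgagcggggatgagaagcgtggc
CD44: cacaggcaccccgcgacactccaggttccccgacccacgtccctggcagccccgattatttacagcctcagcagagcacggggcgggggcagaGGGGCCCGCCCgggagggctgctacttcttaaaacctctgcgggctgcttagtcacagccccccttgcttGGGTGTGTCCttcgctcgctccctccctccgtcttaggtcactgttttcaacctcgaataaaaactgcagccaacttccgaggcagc
HMMR: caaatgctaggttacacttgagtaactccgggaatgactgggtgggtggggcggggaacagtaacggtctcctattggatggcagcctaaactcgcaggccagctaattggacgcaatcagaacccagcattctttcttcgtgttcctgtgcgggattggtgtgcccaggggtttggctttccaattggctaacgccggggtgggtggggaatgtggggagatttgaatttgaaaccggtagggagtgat
HAS3 had matches at 4 distinct positions, in 3 capitalized runs. CD44 had 3 positions, of which 1 matched on both strands inside a single GC-rich run. HYAL1 had the most, with 9 positions, and the 2 starts of HYAL3 had 6 and 2. HYAL2 and HMMR had none, and HAS1 had 1. These are matches of letters and show nothing on binding.

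HAS2, the synthase known for making very long chains, was lower and HAS3, which makes shorter chains, was higher in WCE-treated tumors at the unadjusted level, and neither passed after adjustment over all entries. HAS2 was at 110.8, 75.4 and 80.4 FPKM in vehicle replicates 1, 2 and 3 and at 82.9, 36.1 and 53.1 FPKM in WCE replicates 1, 2 and 3. The groups overlapped, because WCE replicate 1 lay above vehicle replicates 2 and 3, while WCE replicates 2 and 3 lay below every vehicle-treated tumor. Means were 88.9 ± 19.2 and 57.4 ± 23.7 FPKM (SD, n = 3 each). The log2 fold change of FPKM + 1, WCE minus vehicle, was -0.68 (95% interval -1.35 to -0.01), with an unadjusted p of 0.0473 and an adjusted p of 0.623 by limma. The exact two-sided permutation test over the 6 tumors gave p = 0.3. HAS2 is drawn, without mention in the text, in a network picture that the study made from this RNA-seq, so its direction is not independent evidence.

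HAS3 was at 107.2, 114.3 and 116.1 FPKM in vehicle replicates 1, 2 and 3 and at 117.5, 200.2 and 162.8 FPKM in WCE replicates 1, 2 and 3. Every WCE-treated tumor was above every vehicle-treated tumor, but WCE replicate 1 exceeded vehicle replicate 3 by only 0.017 on the log2 scale. The vehicle-treated tumors were close together, at 113 ± 4.69 FPKM (SD, n = 3), and the WCE-treated tumors were spread, at 160 ± 41.4 FPKM (SD, n = 3). The log2 fold change was 0.47 (standard error 0.18, 95% interval 0.05 to 0.90), with an unadjusted p of 0.034 and an adjusted p of 0.623 by limma. By exact permutation p was 0.1, which is the lowest value possible with 3 tumors against 3.

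HAS1, the least active synthase, is listed at chr19:52216365-52227221 with a value of 0 in 5 tumors and at 0.057 FPKM in WCE replicate 2. No fold is given, since a listed 0 can be a failed estimate. HEXA, a lysosomal enzyme gene that nearly every cell uses, was also listed at 0 in all 6 tumors.

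The background for these counts is set by the whole table. HAS3 was 1 gene higher and HAS2 was 1 gene lower at an unadjusted p under 0.05, out of 6 hyaluronan genes tested, where 3.78% of all entries tested were higher and 3.33% lower, together 7.1%. HAS3 was the 1 of the 6 whose groups did not overlap, a pattern seen in 12.8% of entries. After Benjamini-Hochberg adjustment in limma, 0 of the 6 passed, with a lowest adjusted p of 0.623, and 0.00753% of entries did. The unmoderated test called 0 of the 6 even before adjustment. The median log2 fold change was -0.02 over the 6 genes and -0.01 over all entries.

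Without vehicle replicate 3 and WCE replicate 1, the log2 fold change was -1.04 for HAS2 (95% interval -1.70 to -0.39) and 0.70 for HAS3 (95% interval 0.35 to 1.05). The unadjusted p by limma was 0.0093 and 0.0034, and the adjusted p was 0.190 and 0.174. The same 2 of the 6 genes had an unadjusted p under 0.05, against 18.4% of entries, and 0 passed after adjustment, against 0.0376%. HAS2 and HAS3 kept their directions when each tumor was left out in turn. Both kept an unadjusted p under 0.05 only without WCE replicate 1, where HAS2 had a log2 fold change of -0.98 (unadjusted p = 0.0032 by limma) and HAS3 of 0.68 (unadjusted p = 0.0012 by limma). The change was smallest without WCE replicate 2, at -0.39 for HAS2 (unadjusted p = 0.142 by limma) and 0.30 for HAS3 (unadjusted p = 0.108 by limma). For HAS2, the unadjusted p was 0.154, 0.061 and 0.075 by limma without vehicle replicates 1, 2 and 3, and 0.104 without WCE replicate 3. For HAS3, the corresponding values by limma were 0.086, 0.074, 0.063 and 0.092. Over the 13287 entries tested, the count with an unadjusted p under 0.05 by limma also moved with the tumor left out. It was 423, 347 and 1771 without vehicle replicates 1, 2 and 3, and 2033, 235 and 219 without WCE replicates 1, 2 and 3.

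**Figure D2:**
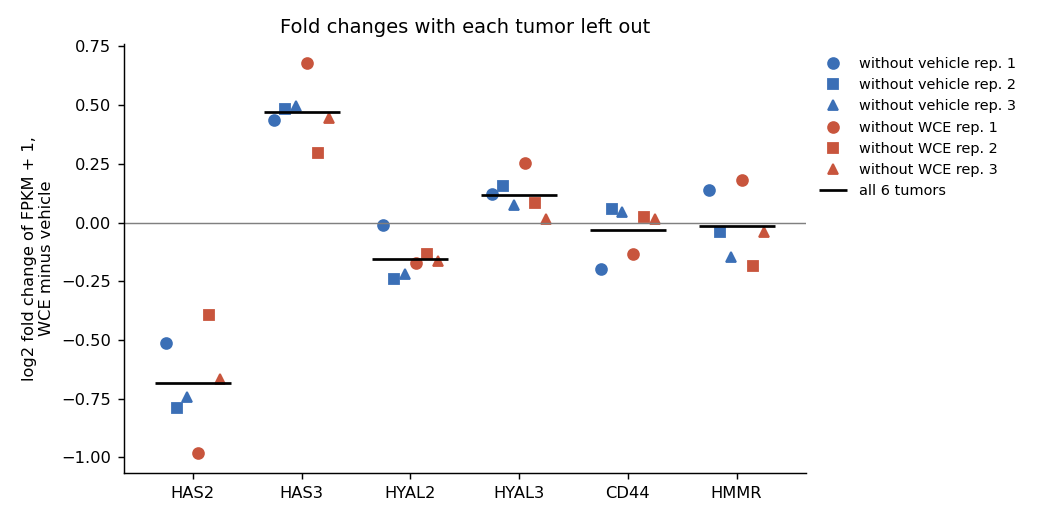
Log2 fold change of FPKM + 1, WCE minus vehicle (vertical axis), for the 6 hyaluronan genes tested; the black line is the value with all 6 tumors and each marker the value without 1 tumor. HAS2 stays below 0, between -0.98 and -0.39, HAS3 stays above 0, between 0.30 and 0.68, and CD44 and HMMR cross 0.

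Over all 6 tumors, the sum of the synthases had a narrower range than HAS2 or HAS3. Among the vehicle-treated tumors alone, HAS3 varied less than the sum, with an SD of 4.69 against 14.8 FPKM. Summed HAS1, HAS2 and HAS3 FPKM was 218, 190 and 197 in vehicle replicates 1, 2 and 3 and 200, 236 and 216 in WCE replicates 1, 2 and 3, and the groups overlapped. HAS2 made up 50.8%, 39.7% and 40.9% of that sum in the vehicle-treated tumors and 41.4%, 15.3% and 24.6% in the WCE-treated tumors. The share was thus lower than in any vehicle-treated tumor in WCE replicates 2 and 3, and inside the vehicle range in WCE replicate 1. The means were 43.8 ± 6.08% and 27.1 ± 13.2% (SD, n = 3 each), a difference of -16.7 percentage points, or -25.3 without the near-identical libraries and -10.8 without WCE replicate 2. The ratio of HAS3 to HAS2 was 0.968, 1.52 and 1.44 in the vehicle-treated tumors and 1.42, 5.55 and 3.06 in the WCE-treated tumors. These shares are a description with no test, and FPKM shares are not shares of enzyme.

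**Figure D3:**
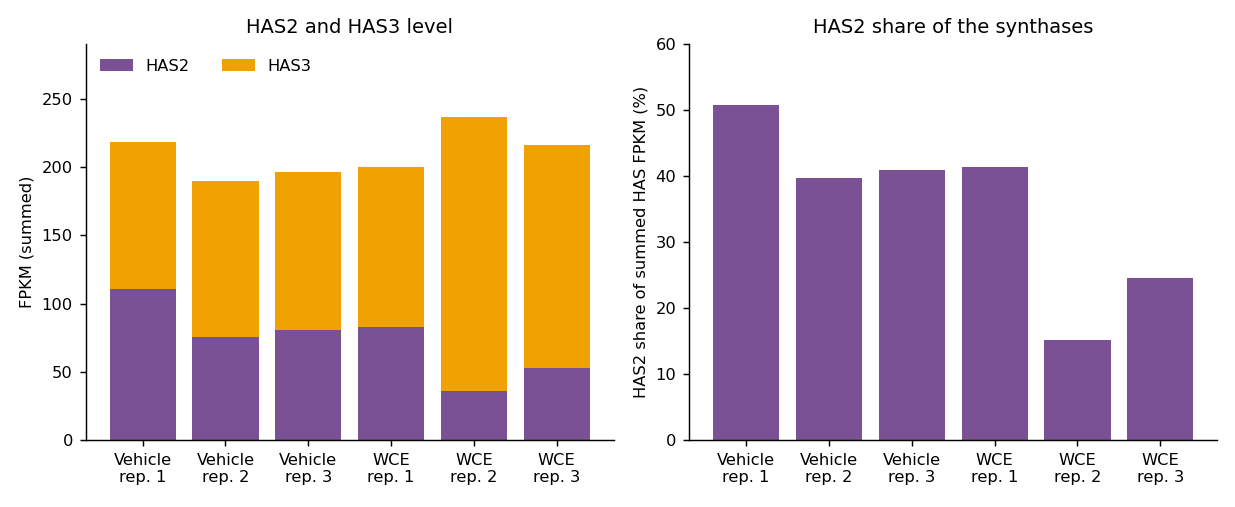
HAS2 and HAS3 FPKM stacked (left) and HAS2 as a percentage of summed HAS1, HAS2 and HAS3 FPKM (right) in each of the 6 tumors. The stacks run from 190 to 236 FPKM, and the HAS2 share is 15.3% and 24.6% in WCE replicates 2 and 3, below the 39.7% to 50.8% of the vehicle-treated tumors, with WCE replicate 1 at 41.4%.

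Both synthases share their listed locus with another gene. In the coordinates of the table, which itself names no build, HAS2 is listed at chr8:122625271-122657564 together with HAS2-AS1, its antisense transcript, and the sources used here do not say whether fragments were assigned by strand, so the reads of the pair may not be fully separated. HAS2-AS1 was at 8.66, 6.18 and 8.88 FPKM in vehicle replicates 1, 2 and 3 and at 9.84, 3.92 and 5.05 FPKM in WCE replicates 1, 2 and 3. Its lowest values were in WCE replicates 2 and 3, as for HAS2, and the groups overlapped (log2 fold change -0.36, unadjusted p = 0.242 by limma). Without the near-identical libraries its log2 fold change was -0.61 (95% interval -1.12 to -0.10, unadjusted p = 0.0267 and adjusted p = 0.223 by limma). HAS3 is listed at chr16:69139467-69166493 with CHTF8, a gene of sister chromatid cohesion, which was at 34.8, 32.4 and 33.2 FPKM under vehicle and 33.4, 35.9 and 35.6 FPKM in the WCE-treated tumors (log2 fold change 0.06, unadjusted p = 0.509 by limma, and 0.09 with unadjusted p = 0.430 without the near-identical libraries). CHTF8 thus spanned a far narrower range than HAS3. Within 100 kb of the 8 genes, 31 other entries were listed and 19 were tested, of which limma gave 0 an unadjusted p under 0.05 in either direction and 0 passed after adjustment. Without the near-identical libraries 3 were higher (GNAI2, TMEM115 and CACNA2D2, named after their values were seen) and 1 was lower (HAS2-AS1) at that level, and 0 passed after adjustment. In that fit 18.4% of all entries tested were called in either direction.

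The hyaluronidases showed no difference beyond the spread between tumors. HYAL2, a membrane-anchored enzyme that cuts long chains at the cell surface, is listed at chr3:50355221-50360281. It was at 40.2, 29.0 and 29.9 FPKM in vehicle replicates 1, 2 and 3 and at 29.9, 28.3 and 29.4 FPKM in WCE replicates 1, 2 and 3. Apart from vehicle replicate 1, the tumors lay between 28.3 and 29.9 FPKM, and the log2 fold change of -0.16 (95% interval -0.47 to 0.16, unadjusted p = 0.280 by limma) shrank to -0.01 without that tumor and was -0.24 without the near-identical libraries (unadjusted p = 0.228 by limma). HYAL3, whose role in hyaluronan turnover is the least clear, is listed at chr3:50330259-50336899. Its joined entry with NAT6, an acetyltransferase gene, was at 10.9, 11.4 and 10.1 FPKM under vehicle and 9.60, 12.4 and 13.7 FPKM in the WCE-treated tumors. WCE-treated tumors were both the lowest and the highest, and the log2 fold change was 0.12 (95% interval -0.20 to 0.44, unadjusted p = 0.422 by limma), or 0.21 without the near-identical libraries (unadjusted p = 0.125 by limma).

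HYAL1, the lysosomal enzyme that completes the breakdown of short chains, is listed at chr3:50337320-50349812 and was below 0.5 FPKM in every tumor. It was at 0.336, 0.298 and 0.369 FPKM in vehicle replicates 1, 2 and 3 and at 0.319, 0.476 and 0.380 FPKM in WCE replicates 1, 2 and 3, and the groups overlapped. HYAL2 accounted for 67.6% to 78.2% of the summed hyaluronidase FPKM over the 6 tumors and HYAL1 for 0.65% to 1.16%. The sum was 51.4, 40.7 and 40.4 FPKM under vehicle and 39.8, 41.2 and 43.6 FPKM in the WCE-treated tumors, so that vehicle replicate 1 stood above the rest. The 3 genes lie side by side on chromosome 3, and of 13 other entries within 100 kb of them 10 were tested. With all 6 tumors, 0 had an unadjusted p under 0.05 by limma. Without the near-identical libraries the 3 higher ones named above did, against 18.4% of all entries in either direction. After adjustment 0 passed in both fits.

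The receptors were expressed in every tumor and did not separate the groups. CD44, the main cell surface receptor of hyaluronan, is listed at chr11:35160417-35253949. It was at 104.8, 149.9 and 146.8 FPKM in vehicle replicates 1, 2 and 3 and at 149.2, 119.6 and 121.0 FPKM in WCE replicates 1, 2 and 3. Vehicle replicate 1 was the lowest and vehicle replicate 2 the highest, so the vehicle-treated tumors spanned all the others. The log2 fold change was -0.03 (95% interval -0.41 to 0.35, unadjusted p = 0.852 by limma), and -0.06 without the near-identical libraries (unadjusted p = 0.763 by limma). Its sign turned when vehicle replicate 2 or 3 or WCE replicate 2 or 3 was left out, with values between -0.20 and 0.06 over the 6 fits. The table gives 1 value for all CD44 isoforms, so the splice variants studied in carcinoma cannot be told apart.

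HMMR is listed at chr5:162887517-162918953 and is known to follow the cell cycle. It was at 27.3, 21.1 and 18.03 FPKM in vehicle replicates 1, 2 and 3 and at 16.3, 27.6 and 22.4 FPKM in WCE replicates 1, 2 and 3. Both groups ran from a low to a high tumor over nearly the same range, with the lowest values in the near-identical pair. The log2 fold change was -0.02 (95% interval -0.51 to 0.48, unadjusted p = 0.945 by limma), and it turned to 0.05 without that pair (unadjusted p = 0.793 by limma). The intervals leave room for changes of moderate size in either direction in both receptors. The ratio of CD44 to HMMR ran from 3.84 to 8.14 in vehicle-treated and from 4.34 to 9.18 in WCE-treated tumors.

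**Figure D4:**
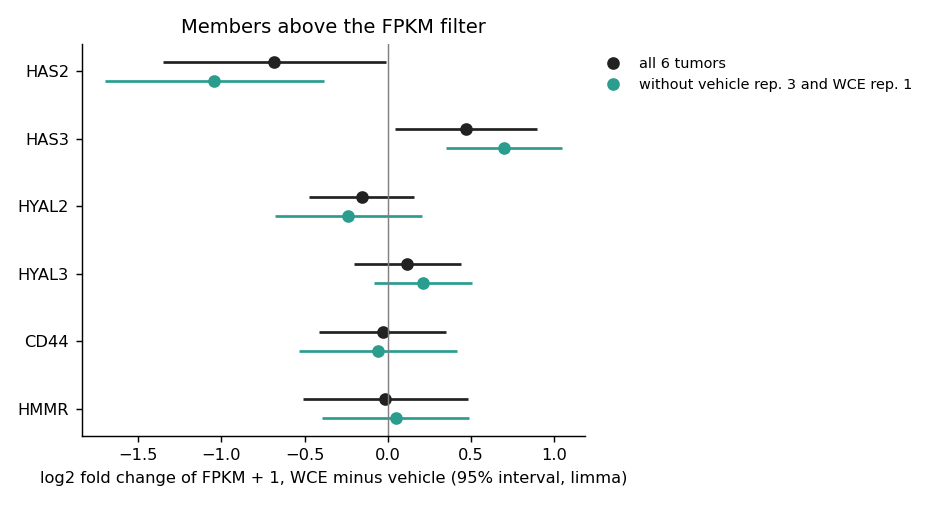
Log2 fold change of FPKM + 1, WCE minus vehicle (horizontal axis), with its 95% interval from limma for the 6 hyaluronan genes tested, with all 6 tumors (black) and without vehicle replicate 3 and WCE replicate 1 (green). The HAS2 and HAS3 intervals exclude 0 in both fits before adjustment, and those of HYAL2, HYAL3, CD44 and HMMR include it.

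The nearest profiles across tumors were sought for HAS2, CD44 and HMMR as the smallest mean absolute difference of centered log2(FPKM + 1) over the 6 tumors, among 13286 other entries. For HAS2 these were ST14, a membrane serine protease of epithelia, at 0.057, SERPINB2, an inhibitor of plasminogen activators, at 0.086 and ID1, an inhibitor of helix-loop-helix transcription factors, at 0.089, where the median entry was at 0.440. ST14 was at 95.03, 73.8 and 73.8 FPKM in vehicle replicates 1, 2 and 3 and at 74.4, 35.5 and 49.4 FPKM in WCE replicates 1, 2 and 3. As for HAS2, vehicle replicate 1 was the highest and WCE replicate 2 the lowest. For CD44 they were ABHD12, a lipase gene, at 0.026, HMCN1, a matrix protein gene, at 0.028 and POLD4, a subunit of DNA polymerase delta, at 0.031 (median entry 0.219). For HMMR they were FAM69B at 0.048, NAT14 at 0.052 and HSPA14 at 0.052 (median entry 0.259). Such likeness is a description over 6 tumors, a pair of which are near-identical, and the entries share library and depth.

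Other genes of the hyaluronan pathway were read from a list of 65, of which 44 were tested and 21 were under the minimum. Of the 44, 1 was higher and 2 were lower in WCE-treated tumors at an unadjusted p under 0.05, against 3.78% and 3.33% of all entries, and 0 passed after adjustment in limma. Without the near-identical libraries 5 were higher and 9 lower, 0 after adjustment with a lowest adjusted p of 0.173 by limma, where 18.4% of entries had such a p in either direction. The median log2 fold change over the 44 was -0.03.

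The genes of precursor synthesis, 10 of 10 tested, held 2 of the 3 calls. UGDH, which oxidizes UDP-glucose to UDP-glucuronic acid, was at 13.7, 14.01 and 13.5 FPKM in vehicle replicates 1, 2 and 3 and at 13.8, 7.90 and 7.87 FPKM in WCE replicates 1, 2 and 3. Of the 6 tumors, 4 lay within 13.5 to 14.01 FPKM, WCE replicate 1 among them, and WCE replicates 2 and 3 lay well below (log2 fold change -0.48, standard error 0.20, limma unadjusted p = 0.0437 and adjusted p = 0.623). With 1 tumor left out, its limma unadjusted p stayed under 0.05 only without WCE replicate 1, where 2033 of 13287 entries were under it. Without the near-identical libraries its log2 fold change was -0.74 (unadjusted p = 0.00086 and adjusted p = 0.173 by limma).

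GFPT2, an isoform of the rate-limiting enzyme of the hexosamine pathway that leads to UDP-N-acetylglucosamine, was at 2.74, 3.64 and 4.12 FPKM under vehicle and 4.55, 5.67 and 6.15 FPKM in the WCE-treated tumors. The groups did not overlap (log2 fold change 0.53, standard error 0.16, limma unadjusted p = 0.0112 and adjusted p = 0.623), and its unadjusted p stayed under 0.05 in each of the 6 fits with 1 tumor left out. The gap lay between vehicle replicate 3 and WCE replicate 1, the near-identical libraries, at a log2 difference of 0.12 (WCE minus vehicle). Groups without overlap were seen in 6 of the 44 pathway genes tested and in 12.8% of all entries tested. The log2 fold change of GFPT2 was 0.73 without the near-identical libraries (limma unadjusted p = 0.0051 and adjusted p = 0.179). UAP1, which makes UDP-N-acetylglucosamine and had the highest level of this role, was at 53.9 to 58.5 FPKM in vehicle-treated and 56.4 to 62.5 FPKM in WCE-treated tumors (log2 fold change 0.06, unadjusted p = 0.548 by limma, and 0.03 without the near-identical libraries).

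Of the hyaluronan-binding matrix genes, 8 of 19 were tested and 1 was called. VCAN, which encodes the proteoglycan versican, was at 9.65, 6.71 and 4.22 FPKM in vehicle replicates 1, 2 and 3 and at 3.96, 3.30 and 3.87 FPKM in WCE replicates 1, 2 and 3. The groups did not overlap, with a gap between vehicle replicate 3 and WCE replicate 1 that is small beside the spread of the vehicle-treated tumors (log2 fold change -0.68, standard error 0.24, limma unadjusted p = 0.0234 and adjusted p = 0.623). Without vehicle replicate 1 the log2 fold change was -0.43, and its unadjusted p in limma was over 0.05 without vehicle replicate 1 or 2 or WCE replicate 2 or 3. The log2 fold change was -0.99 without the near-identical libraries (limma unadjusted p = 0.0035 and adjusted p = 0.174). Versican is also a product of fibroblasts, and the stroma of these tumors came from the mouse host. The markers are human gene entries, and how mouse reads were told apart is not given, so host fibroblast content was not measured. Of the 4 fibroblast markers tested, LUM was lower at an unadjusted p under 0.05 in limma, COL1A1 and COL3A1 had log2 fold changes of -0.44 and -0.51 and PDGFRA of 0.93 that did not pass, and the summed markers overlapped between groups. Their part in the VCAN values was not tested. The matrix gene with the highest level was PTX3, a pentraxin that cross-links hyaluronan, at 62.9 to 196 FPKM in vehicle-treated and 89.4 to 154 FPKM in WCE-treated tumors (log2 fold change -0.03, unadjusted p = 0.942 by limma, and -0.05 without the near-identical libraries).

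No entry of the remaining roles had an unadjusted p under 0.05 with all 6 tumors. These were 4 tested of 8 other genes of degradation, 1 of 6 other receptors, 8 of 9 partners of CD44, 12 of 12 partners of HMMR at the spindle and HAS2-AS1. TLR2, an innate immune receptor that senses hyaluronan fragments, was at 2.77 to 8.13 FPKM in vehicle-treated and 4.02 to 9.29 FPKM in WCE-treated tumors (log2 fold change -0.02, unadjusted p = 0.966 by limma, and -0.11 without the near-identical libraries). LYVE1, the receptor of lymphatic vessels, was listed at 0 throughout.

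MSN, which encodes moesin, a linker of CD44 to the actin cytoskeleton, was at 197 to 219 FPKM in vehicle-treated and 215 to 262 FPKM in WCE-treated tumors, and the groups overlapped (log2 fold change 0.20, unadjusted p = 0.1001 by limma). The value was 0.32 without the near-identical libraries (limma unadjusted p = 0.0324 and adjusted p = 0.235). DYNLL1, a dynein light chain, was at 416 to 531 and 417 to 435 FPKM (log2 fold change -0.11, unadjusted p = 0.370 by limma, and -0.14 without the near-identical libraries). The median log2 fold change was -0.06 over the CD44 partners and -0.09 over the HMMR partners, beside -0.01 over all entries.

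**Figure D5:**
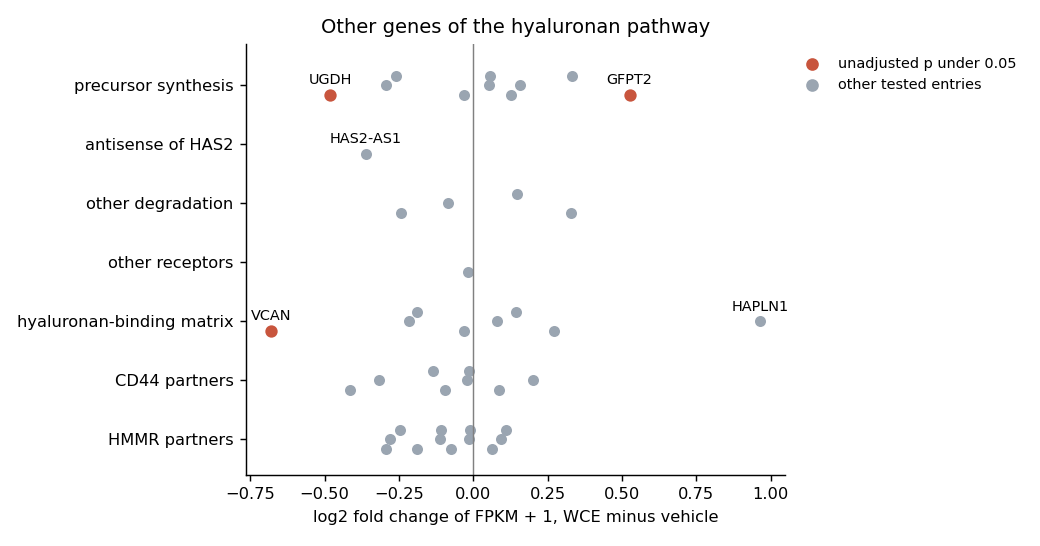
Log2 fold change of FPKM + 1, WCE minus vehicle (horizontal axis), of the 44 tested genes of the pathway list by role, 1 point a gene, spread vertically for legibility; red points have an unadjusted p under 0.05 by limma. GFPT2 at 0.53 is the red point above 0, UGDH at -0.48 and VCAN at -0.68 are those below, and HAPLN1, far to the right, has a 95% interval that includes 0.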

How the data were processed

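mRNA was measured in 6 PC-3 tumors, 3 from vehicle-treated and 3 from WCE-treated nude mice. The authors deposited 1 table of FPKM values per gene entry laid out as Cufflinks writes them, with 1 column a tumor, all of them used. The submitters' processing notes name TopHat2 2.0.13, Cufflinks and the builds hg19 and mm10, without their roles, and how human and mouse reads were told apart is not given in the sources used here. Loci are as listed in the table, counted from 1.

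FPKM values were changed to log2(FPKM + 1), so that fold changes of low genes are understated. The 13287 of 24000 entries that averaged 0.5 FPKM or more entered limma (version 3.58.1, under R 4.3.3), fitted with a trend of variance on mean, a two-sided test and Benjamini-Hochberg adjustment over all entries tested, at a threshold of 0.05. The fit was tested on simulated data. For single genes an exact permutation test over the 6 tumors was added. Nothing says that the tumors were processed apart, so p-values measure the spread between these samples. The table holds no counts, so depth is known only relative to vehicle replicate 3, from the commonest ratio of low values, and no counting intervals are given.

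The 8 genes, the pathway and marker lists and the alternatives were chosen with earlier results of these data known. Of the pathway list, the text names entries with an unadjusted p under 0.05, the highest mean of each role and the antisense entry of HAS2. For the genes of degradation, the entry this rule picks is not reported here. HEXA, LYVE1 and HAPLN1 were named after their values were seen. Alternatives were the pseudocount, the filter, scaling between tumors, the variance model, tumor weights, a replicate block and tumors left out. Python 3.11.15, pandas 2.3.3, numpy 2.4.6 and matplotlib 3.10.9 were used for tables and figures.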

Additional observations from a re-analysis of the deposited data

How the results depend on the processing

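With all 6 tumors, 944 entries had an unadjusted p under 0.05 and 1 an adjusted p under 0.05. The first count was 593 by the unmoderated test, 3201 with tumor weights, 219 to 2033 with 1 tumor left out and 2449 without vehicle replicate 3 and WCE replicate 1. The second was 0 without a filter on low values and by the unmoderated test, 1 to 7 with 1 tumor left out (2 without WCE replicate 2 and 7 without WCE replicate 1) and 5 without both near-identical libraries. Of the hyaluronan genes, 2 had an unadjusted p under 0.05 with all tumors, 0 without the filter or by the unmoderated test, 1 under median-ratio, upper-quartile or quantile scaling or without the mean-variance trend, and 0 to 2 with 1 tumor left out. Where 1 remained it was HAS3, and HAS2 had an unadjusted p of 0.0504 to 0.0605 by limma. No hyaluronan gene passed after adjustment in any of the 18 settings. The pathway list, with 3 calls, gave 11 with tumor weights, 6 with the replicate block, 1 to 10 with 1 tumor left out and 14 without both libraries.

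The log2 fold change of CD44 turned to 0.031 under quantile normalization and ran from -0.20 to 0.058 with 1 tumor left out. That of HMMR turned to 0.0093 under quantile normalization, 0.12 with tumor weights and 0.05 without both libraries, and ran from -0.18 to 0.18 with 1 tumor left out. HAS2, HAS3, HYAL2, HYAL3, UGDH, GFPT2 and VCAN kept their direction in all 18 settings. For these shifts the cause was not tested.

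Labels number the tumors 1 to 3 in both groups without saying that equal numbers belong together. Deviations from the group mean correlated at a mean of -0.06 for same-numbered tumors (-0.24 to 0.16 over 3 pairs). For tumors of different numbers the mean was 0.03 (-0.33 to 0.36 over 6 pairs, the near-identical pair among them). With that pair included and values centered in groups of 3, this check cannot decide on pairing. Since the labels state no pairs, the numbers were not taken as pairs. With the replicate block, 1049 entries had an unadjusted p under 0.05, and HAS2 (unadjusted p = 0.0058 by limma) and HAS3 (unadjusted p = 0.0274 by limma) stayed under it. Values of low genes such as HYAL1 rest on few reads, and WCE replicate 1 was the shallowest library.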

Other observations

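HAPLN1, which encodes a link protein that ties proteoglycans to hyaluronan, was at 29.3, 34.99 and 7.63 FPKM in vehicle replicates 1, 2 and 3 and at 7.60, 122.9 and 64.7 FPKM in WCE replicates 1, 2 and 3. The near-identical libraries were the lowest and WCE replicates 2 and 3 the highest, so that its log2 fold change of 0.96 had a 95% interval of -1.30 to 3.23 (unadjusted p = 0.351 by limma). Without those libraries it was 1.45 (unadjusted p = 0.0049 and adjusted p = 0.179 by limma). PDGFRA, a receptor of fibroblasts and other stromal cells, had a like order, with 11.0, 7.87 and 3.97 FPKM in the vehicle-treated and 4.02, 32.6 and 20.7 FPKM in the WCE-treated tumors (log2 fold change 0.93, and 1.39 without the near-identical libraries). Both genes were picked here after their values had been seen.

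Among the cell cycle genes listed beside HMMR, CDK1, the kinase of mitotic entry, had groups that did not overlap, at 185, 146 and 134.4 FPKM in vehicle replicates 1, 2 and 3 and at 134.0, 125 and 117 FPKM in WCE replicates 1, 2 and 3 (log2 fold change -0.29, unadjusted p = 0.066 by limma, and -0.44 with unadjusted p = 0.0306 and adjusted p = 0.231 without the near-identical libraries). The CDK1 gap lay between vehicle replicate 3 and WCE replicate 1, the near-identical libraries, at a log2 difference of -0.004 (WCE minus vehicle). Of the 12 HMMR partners tested, 1 had groups that did not overlap, against 12.8% of all entries tested. The groups of HMMR overlapped. CDK1 was also picked after its values had been seen.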
